A study of Mus musculus with 12 samples.

Results

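The effect of losing Pml on gene expression in mouse liver was measured across both diets of a study that crossed genotype with diet, as the mean of the PML knockout groups minus the mean of the wild-type groups. All 12 samples of the series entered, 6 from PML knockout and 6 from wild-type livers. Of the 45141 probe sets on the arrays, the 28898 that are annotated to a single gene were used, and they cover 17097 genes. No probe set was chosen by its values. The groups were PML knockout on a high-fat diet, wild type on a high-fat diet, PML knockout on a low-fat diet and wild type on a low-fat diet, with 3 samples in each. The high-fat diet had 60% of its calories from fat and the low-fat diet 10%, and both were fed for 20 weeks to male mice that were fasted for 8 h before the liver was taken. Each sample was total RNA of 1 liver extract on 1 Affymetrix array, and each group of 3 extracts stood for 8 mice. The labels give neither the strain nor the design of the Pml allele, nor the age of the mice, and they name no cell type for the knockout. They do not say outright that the extracts of a group came from different mice, so p-values measure the spread between these extracts, and "a liver" in the text stands for 1 extract. With 3 arrays a group, the number of arrays limits the precision of every value.

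PML is the protein that builds PML nuclear bodies, small structures in the nucleus that hold and modify other proteins, many of them by attaching the small protein SUMO. The bodies take part in the activation of p53, the tumour suppressor that switches on genes for cell cycle arrest, DNA repair and cell death after damage. Pml is also a gene switched on by interferons, the signalling proteins of antiviral defence. PPAR-alpha, encoded by Ppara, is the nuclear receptor that raises fatty acid oxidation in the fasting liver, and PPAR signalling and fatty acid oxidation are the subject that the study's title gives. In the text, a value is a log2 signal unless it is called a difference, and a difference is knockout minus wild type on the log2 scale, so that -1 stands for a 2-fold lower signal in knockout livers.

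The arrays were alike, and over all probe sets any pair of them had a Pearson's r of 0.986 to 0.995. As a measure of RNA quality, the actin signal at the 3' end exceeded that at the 5' end by 1.41 to 1.55 in knockout and by 1.26 to 1.85 in wild-type livers. Hepatocyte markers such as Alb, the gene of albumin, were bright in every sample, and their mean over 12 genes was 12.24 to 12.47 in knockout and 12.31 to 12.45 in wild-type livers. A pair of knockout livers stood apart in other cell types. The mean of 17 Kupffer cell and macrophage markers was 5.48 in knockout low-fat replicate 2 and 6.06 in knockout high-fat replicate 3, against 6.46 to 7.33 in the other 10 samples. The mean of 18 endothelial markers was low in 3 knockout samples, at 5.88 in high-fat replicate 2, 5.90 in high-fat replicate 3 and 6.04 in low-fat replicate 2, against 6.44 to 6.83 in the other 9 samples. The values below that touch these cells are therefore also given without the pair of knockout samples with the lowest macrophage markers.

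Pml was the 1 probe set of 28898 that passed an adjusted p of 0.05 (limma with Benjamini-Hochberg adjustment), a share of 0.00346% of all probe sets. On the high-fat diet its brighter probe set had 3.43, 3.04 and 3.82 in knockout livers, against 4.97, 5.35 and 5.38 in wild-type livers. Fed the low-fat diet, knockout livers had 3.70, 3.59 and 3.59, against 5.40, 4.92 and 5.07 in wild-type livers. All 6 knockout samples lay below all 6 wild-type samples, and the closest pair was 3.82 in a knockout and 4.92 in a wild-type liver. Pml averaged 3.53 ± 0.271 in knockout livers and 5.18 ± 0.220 in wild-type livers (SD, n = 6 each), a difference of -1.66 (SE 0.132, 95% interval -1.94 to -1.37, limma adjusted p = 5.88e-05), or 3.15-fold. The difference was -1.80 on the high-fat and -1.51 on the low-fat diet, and that between the diets had an unadjusted p of 0.275. The second Pml probe set was dim in all samples, at 2.73 to 3.03 in knockout and 3.04 to 3.42 in wild-type livers, with a difference of -0.31 (adjusted p = 0.642). The labels do not say whether either probe set lies in the removed part of the gene. In an exact permutation test that exchanged genotype labels within each diet, Pml had a two-sided p of 0.005, the smallest that the 400 arrangements allow. In RNA from whole liver, fewer cells of a type and less RNA per cell cannot be told apart.

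**Figure D1:**
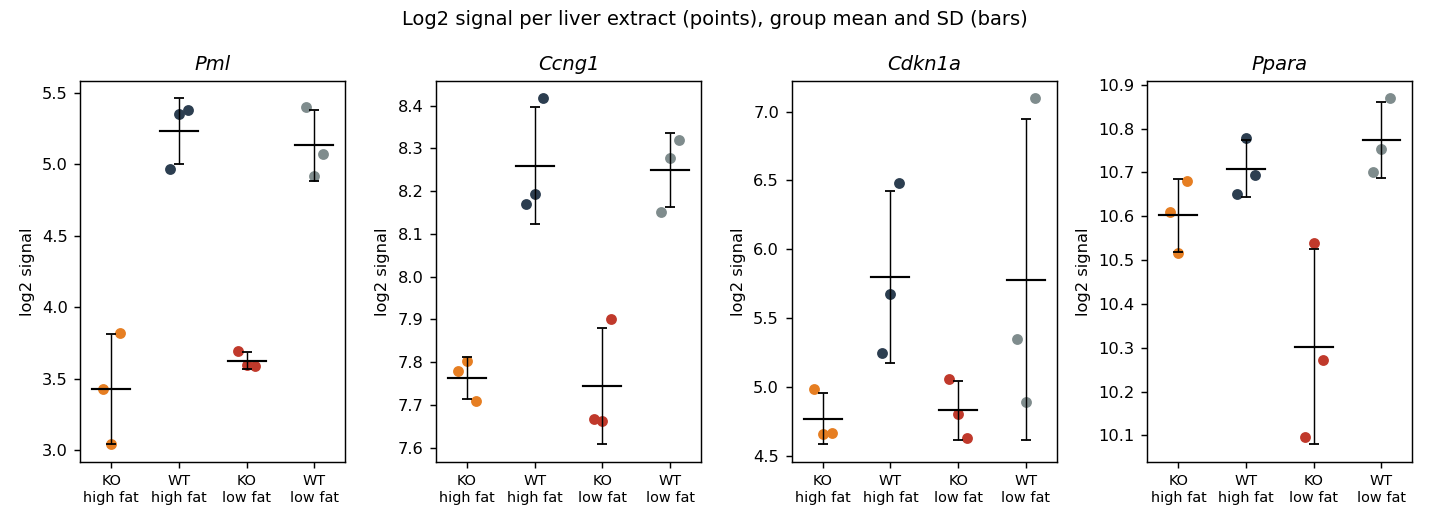
Log2 signal of Pml, Ccng1, Cdkn1a and Ppara (1 panel each) in every extract, by genotype and diet. Points are single liver extracts, horizontal bars are group means and error bars are SD over the 3 extracts of a group. Every knockout liver lies below every wild-type liver for Pml (3.04 to 3.82 against 4.92 to 5.40) and for Ccng1 (7.66 to 7.90 against 8.15 to 8.42), while Ppara is apart on the low-fat diet only (10.10 to 10.54 against 10.70 to 10.87) and 1 wild-type liver lies in the knockout range of Cdkn1a (4.89).

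Ccng1, which encodes cyclin G1 and is one of the classical genes switched on by p53, came next. On the high-fat diet its brightest probe set had 7.78, 7.80 and 7.71 in knockout livers, against 8.17, 8.19 and 8.42 in wild-type livers. With low-fat feeding it had 7.67, 7.66 and 7.90 in knockout livers, against 8.15, 8.28 and 8.32 in wild-type livers. The groups did not overlap on either diet, and the difference was -0.50 on the high-fat and -0.51 on the low-fat diet. Over both diets the difference was also -0.50 (SE 0.0713, 95% interval -0.65 to -0.35), a 1.42-fold lower signal. Its limma adjusted p over all 28898 probe sets was 0.0541, just short of the threshold. Its two-sided exact permutation p was 0.005, the smallest that the 400 arrangements allow. The permutation p uses the same values and is not adjusted for the number of probe sets, so it adds no separate evidence. The other probe sets of Ccng1 gave differences of -0.52 and -0.39 (adjusted p = 0.792 for both). Ccng1 passed in several other fits, among them the fit with only the brightest probe set of each gene, where the adjusted p was 0.0271. Leaving out single samples put its adjusted p between 0.0377 (without knockout low-fat replicate 3) and 0.278, with differences of -0.54 to -0.47.

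Genes of the p53 list had mostly lower values in knockout livers, but none of the 35 measured passed among all probe sets. No gene was taken out of the list for these counts. Of the 35, 26 had a difference below 0, where 43.8% of all genes did, and the median difference was -0.08, against 0.015 over all genes. An unadjusted p under 0.05 was found for 7 lower members and 0 higher members, where 2.68% of all genes were lower and 3.65% were higher at that level. The list median was -0.10 on the high-fat and -0.12 on the low-fat diet, and -0.06 without the pair of samples with few macrophage markers. The mean over the list was 5.995 to 6.13 in knockout livers and 6.11 to 6.28 in wild-type livers, so that the genotypes touched at their edges.

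Cdkn1a, the p21 inhibitor of the cell cycle, had the largest difference in the p53 list. On the high-fat diet it had 4.98, 4.66 and 4.66 in knockout livers, against 5.25, 5.67 and 6.48 in wild-type livers. Low-fat knockout livers had 5.06, 4.80 and 4.63, against 5.35, 4.89 and 7.10 in low-fat wild-type livers. The knockout values were close together and the wild-type values were spread, with 1 wild-type liver at 4.89 inside the knockout range. The difference was -0.99 (SE 0.291, 95% interval -1.61 to -0.37, limma adjusted p = 0.792), at -1.03 on the high-fat and -0.95 on the low-fat diet. Aen, an exonuclease that p53 induces in apoptosis, had 6.55 to 6.95 in knockout livers, median 6.73, and 6.84 to 7.16 in wild-type livers, median 7.04, a difference of -0.30 (adjusted p = 0.792). Trp53inp1, a p53-induced cofactor of cell death and autophagy, had a difference of -0.57, and Zmat3, an RNA-binding protein, had -0.21, both with an adjusted p of 0.794. Mdm2, the ubiquitin ligase that p53 induces and that degrades p53, had -0.16 (95% interval -0.35 to 0.02). Tigar, a p53-induced regulator of glycolysis, had the highest difference of the list, 0.20.

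The promoters of Ccng1 and Cdkn1a are shown because these are the 2 p53 targets on which the description rests. Each runs from 250 bases before to 50 after the annotated start (RefSeq, GRCm38.p6), 5′ to 3′ on the strand of the gene, and capitals mark matches to the p53 half-site, searched on both strands. The Ccng1 window is chr11:40755237-40755536 on the minus strand, and its match starts 185 bases before the start. The Cdkn1a window is chr17:29090729-29091028 on the plus strand, with matches at 73 and 51 bases before the start. A second annotated Cdkn1a window, chr17:29093519-29093818, held 0 matches.
Ccng1: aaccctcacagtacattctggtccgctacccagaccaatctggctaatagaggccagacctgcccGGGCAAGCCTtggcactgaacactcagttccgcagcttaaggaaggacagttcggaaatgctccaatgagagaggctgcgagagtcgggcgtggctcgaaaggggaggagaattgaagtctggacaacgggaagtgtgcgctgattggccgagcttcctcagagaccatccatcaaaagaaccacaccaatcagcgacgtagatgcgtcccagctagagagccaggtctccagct
Cdkn1a: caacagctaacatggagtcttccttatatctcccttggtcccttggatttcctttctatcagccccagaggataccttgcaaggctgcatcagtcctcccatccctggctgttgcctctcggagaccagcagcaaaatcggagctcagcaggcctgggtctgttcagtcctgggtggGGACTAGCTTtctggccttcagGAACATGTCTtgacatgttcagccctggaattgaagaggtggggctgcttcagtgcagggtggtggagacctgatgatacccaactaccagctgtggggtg
The half-site was found in 11 of the 28 measured p53 targets with a window, where 9.55% of all genes with a window and 8.36% of all windows held one. A match describes the letters of the window and is not a measured binding site. The list was made of p53 targets, so its share of matches tells nothing about the knockout.

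Partners of PML in the nuclear bodies were measured for 28 genes including Pml, and no other member passed. Sp100, which encodes a founding protein of the bodies and is itself induced by interferon, had 3.60 to 4.11 in knockout livers, median 3.95, and 3.33 to 3.99 in wild-type livers, median 3.64, a difference of 0.27 (limma adjusted p = 0.794). Morc3, an ATPase of the bodies, had a difference of -0.37 (adjusted p = 0.794), and Daxx, the histone chaperone that PML draws into them, had -0.17 (95% interval -0.40 to 0.06). Lower values were found for 17 members and higher values for 11, and the median was -0.03. The TRIM family, to which PML belongs, had 14 members lower and 12 higher of 26, with a median of -0.02 and Trim41, a ubiquitin ligase, at -0.27 (adjusted p = 0.792).

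Ppara had a lower value in knockout livers, which did not pass and was larger on the low-fat diet. On the high-fat diet its brightest probe set had 10.61, 10.52 and 10.68 in knockout livers, against 10.65, 10.78 and 10.69 in wild-type livers. The low-fat values were 10.10, 10.54 and 10.27 in knockout livers, against 10.70, 10.75 and 10.87 in wild-type livers. The groups overlapped on the high-fat diet and not on the low-fat diet. The difference over both diets was -0.29 (SE 0.0812, 95% interval -0.46 to -0.12, limma adjusted p = 0.792), at -0.11 on the high-fat and -0.47 on the low-fat diet. The two-sided exact permutation p of Ppara was 0.01, which is not adjusted for the number of probe sets. The other Ppara probe sets gave -0.29 and -0.40 over both diets, and the dimmest of the 3 had 0.00 on the high-fat and -0.80 on the low-fat diet. The difference between diets had an unadjusted p of 0.0182 for the brightest and 0.00237 for the dimmest of them, and no probe set of any gene passed that comparison after adjustment (0 of 28898 in limma, with 1625 at an unadjusted p under 0.05, or 5.62%).

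Among 32 measured PPAR-alpha targets 25 had a difference below 0, where 43.8% of all genes did, with a median of -0.08. An unadjusted p under 0.05 was found for 4 lower and 0 higher members, against 2.68% lower and 3.65% higher among all genes. None passed among all probe sets. The medians by diet were 0.007 on the high-fat and -0.20 on the low-fat diet, where 16 and 29 of the 32 were below 0. The low-fat list means were 8.46, 8.66 and 8.58 in knockout livers, against 8.57, 8.84 and 9.18 in wild-type livers. On the high-fat diet they were 8.93, 9.17 and 9.16 in knockout livers, against 9.21, 9.05 and 9.10 in wild-type livers. The genotypes thus overlapped in the list mean on either diet. Acot1 and Acot2, neighbouring and similar genes for acyl-CoA thioesterases whose probe sets may share signal, had the smallest p-values. On the high-fat diet Acot2 had 6.73, 7.71 and 7.85 in knockout livers, against 7.91, 7.47 and 7.75 in wild-type livers. Under low-fat feeding, 6.75, 6.68 and 6.40 were measured in knockout livers, against 7.22, 7.40 and 8.04 in wild-type livers. The genotypes were apart on the low-fat diet and overlapped on the high-fat diet, and the difference over both was -0.61 (SE 0.197, limma adjusted p = 0.792). Acot1 had -0.70 (95% interval -1.22 to -0.17), Pdk4, the kinase that spares glucose by blocking pyruvate dehydrogenase, had -0.39, and Mgll, the monoglyceride lipase, had -0.20, each with an adjusted p of 0.794. Fgf21, a fasting hormone of the liver, had -0.53 (95% interval -1.16 to 0.09), and Cyp4a10, a fatty acid omega-hydroxylase, had -0.32 (95% interval -1.11 to 0.46), so that neither a lower nor a higher level in knockout livers is shown for these.

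The enzymes of fatty acid oxidation themselves differed little between the genotypes. Of 17 measured mitochondrial genes 9 had lower and 8 had higher values, their median was -0.0004, and their differences lay between -0.12 and 0.15. The widest of their 95% intervals reached -0.29 and 0.25. Cpt1a, which brings fatty acids into the mitochondrion, had 11.13 to 11.71 in knockout and 11.22 to 11.64 in wild-type livers, a difference of -0.10 (95% interval -0.26 to 0.07). Acadm, the medium-chain acyl-CoA dehydrogenase, had 0.05 (95% interval -0.04 to 0.14) and Hadhb, a subunit of the trifunctional protein, 0.02 (95% interval -0.10 to 0.13). Etfa, which passes electrons from these enzymes to the respiratory chain and lies among the 50 genes on 1 side of Pml, had the highest value of the list at 0.15 (95% interval 0.05 to 0.25, adjusted p = 0.792). Of 19 peroxisomal genes 9 were lower and 10 higher, with a median of 0.006 and Decr2, a peroxisomal reductase, at -0.23 (adjusted p = 0.794). The receptors and coregulators of PPAR signalling had 11 of 17 values below 0 and a median of -0.05. Their lowest value belonged to Lpin1, lipin 1, a phosphatidate phosphatase that also acts as a coactivator of PPAR-alpha and is counted in the list of fat synthesis too. It had 8.47 to 11.48 in knockout and 9.02 to 11.44 in wild-type livers, with a wide spread and a difference of -0.74 (95% interval -1.76 to 0.28), at -1.63 on the high-fat and 0.15 on the low-fat diet.

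Genes of fat synthesis went both ways, with 9 of 20 lower, 11 higher and a median of 0.003. Acacb, the acetyl-CoA carboxylase whose product holds back CPT1, had a difference of -0.55 (SE 0.172, limma adjusted p = 0.792), at -0.54 on the high-fat and -0.56 on the low-fat diet. It had 4.94 to 5.32 in knockout and 5.67 to 5.78 in wild-type livers on the high-fat diet, and 6.30 to 7.56 and 7.18 to 7.89 on the low-fat diet, so that the genotypes were apart on the high-fat diet and overlapped on the low-fat diet. Elovl5, an elongase of unsaturated fatty acids, had 0.20 (adjusted p = 0.792) and Mogat1, an acyltransferase that is raised in fatty liver, 0.49 (adjusted p = 0.794), of which 0.91 came on the high-fat and 0.07 on the low-fat diet. Fasn, the fatty acid synthase, had 0.02 (95% interval -0.35 to 0.39), and Scd1, the stearoyl-CoA desaturase, had 0.20 (95% interval -0.07 to 0.47). Cholesterol synthesis had 9 of 19 members lower with a median of 0.005, bile acid synthesis and transport 8 of 20 with 0.012, gluconeogenesis and glycolysis 9 of 16 with -0.012, and oxidative phosphorylation 9 of 27 with 0.005.

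**Figure D2:**
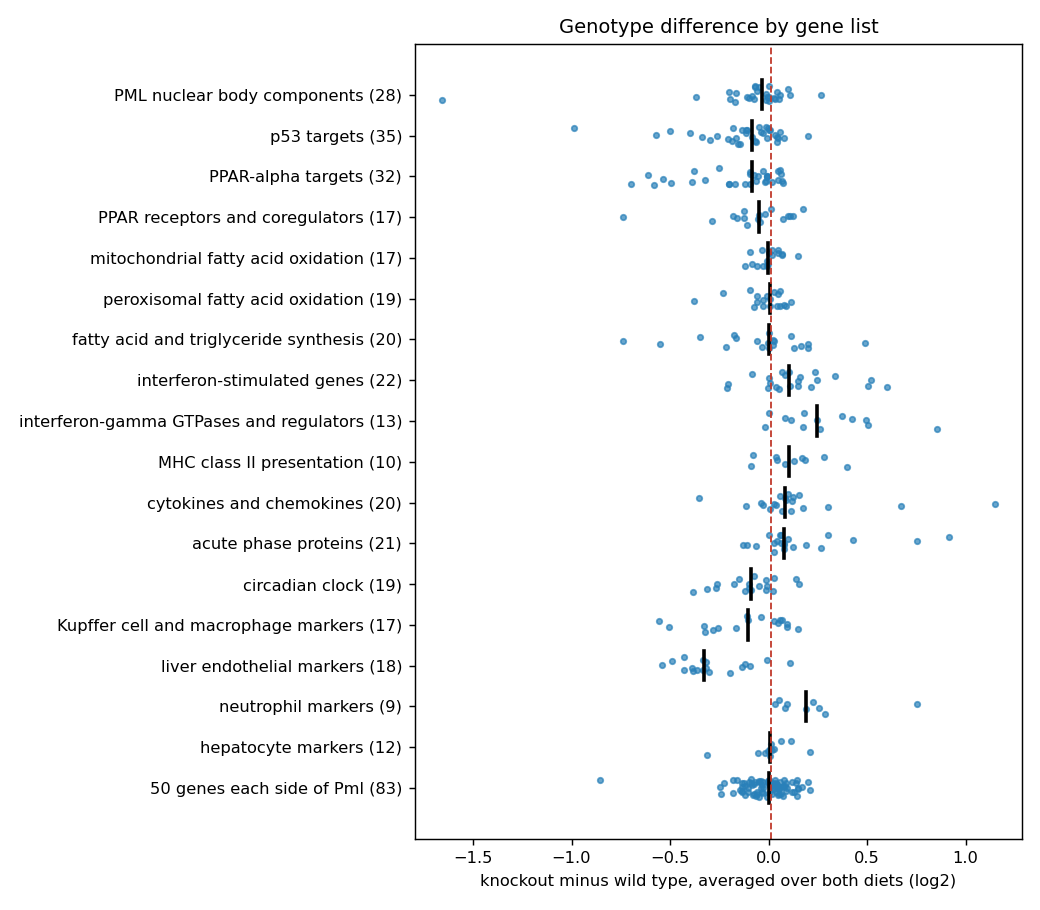
Difference between knockout and wild-type livers averaged over both diets (log2, horizontal axis) for each measured member of 18 gene lists (points, the number of members in brackets). Black bars are list medians and the dashed line is the median over all 17097 genes, 0.015; the endothelial list lies lowest, with a median of -0.33, and the interferon-gamma list highest, with 0.24.

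Across all genes the genotypes were close. The median absolute difference over the 28898 probe sets was 0.065, the median SE 0.0871 and the median difference 0.012. An unadjusted p under 0.05 was reached by 1770 probe sets, or 6.12%, where 1444.9 would be reached by chance, and by 32 under 0.001. Of the 1770, 760 were lower (2.63%) and 1010 were higher (3.50%) in knockout livers. The differences on the high-fat and on the low-fat diet come from different samples, and across 17097 genes, which are not independent replicates, they had a Pearson's r of 0.0524 and a Spearman's rho of 0.0320, and 51.2% had the same sign. Among the 100 genes with the smallest p on the high-fat diet 66 had the same sign on the low-fat diet, and of the 100 with the smallest p on the low-fat diet 54 had the same sign on the high-fat diet. Each diet alone had 1 call, which was Pml.

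**Figure D3:**
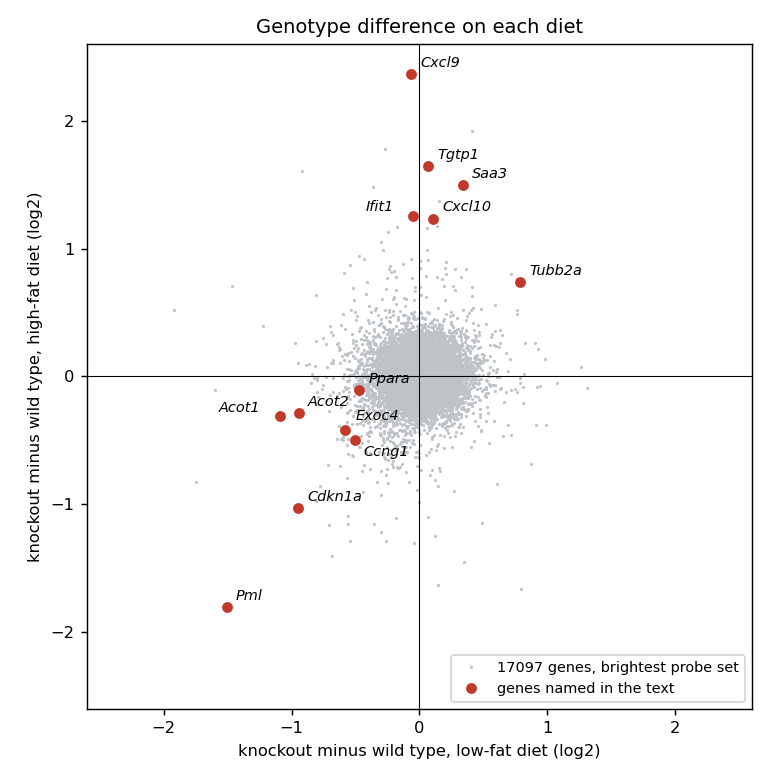
Knockout minus wild-type difference under low-fat feeding (horizontal axis) and under high-fat feeding (vertical axis), both log2, for the brightest probe set of each of 17097 genes (grey), with genes of the text in red. Pml, Ccng1 and Cdkn1a lie low on both axes and Tubb2a high on both, Ppara, Acot1 and Acot2 lie low mainly on the low-fat axis, and Cxcl9, Cxcl10, Tgtp1, Ifit1 and Saa3 lie high mainly on the high-fat axis.

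The 12 genes with the smallest p among those lower in knockout livers were Pml, Ccng1, Cplane1, Exoc4, Kit, Ube4b, Col13a1, Dnajb6, Abhd14a, Fads2, Nat8l and Mllt11, and none but Pml passed. Exoc4, a subunit of the exocyst that tethers vesicles to the cell membrane, had 5.39, 5.25 and 4.94 in knockout livers on the high-fat diet, against 5.45, 5.94 and 5.70 in wild-type livers. Fed the low-fat diet, knockout livers had 4.80, 4.99 and 5.36, against 6.01, 6.02 and 6.13 in wild-type livers. The groups did not overlap, although the highest knockout value (5.39) was close to the lowest wild-type value (5.45), and the difference was -0.76 (SE 0.132, limma adjusted p = 0.230). Another pair of Exoc4 probe sets gave -0.50 and -0.36 (adjusted p = 0.792 for both), and the other 2 of its 5 had differences of -0.05 and -0.02.

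Cplane1, a protein needed to build primary cilia, had -0.82 (adjusted p = 0.143) and -0.996 (adjusted p = 0.463) in a pair of its 6 probe sets, and 0.02 in its brightest one. Its probe set with the smallest p had 4.63, 4.56 and 4.72 in knockout livers on the high-fat diet, against 5.17, 5.06 and 5.80 in wild-type livers. With low-fat feeding it had 4.78, 5.25 and 4.91 in knockout livers, against 5.78, 6.16 and 5.81 in wild-type livers. Within each diet the genotypes were apart, and over both they overlapped. Dnajb6, a co-chaperone, had -0.51 in the probe set with the smallest p (adjusted p = 0.642), without overlap of the genotypes, and -0.14 in the brightest. Ube4b, a ubiquitin chain-extending enzyme, had 8.22 to 8.56 in knockout livers on the high-fat diet, against 8.70 to 8.91 in wild-type livers, a difference over both diets of -0.41 (adjusted p = 0.548), and its second probe set had -0.26. Fads2, the delta-6 desaturase, had -0.44 in a probe set that can match several transcripts and -0.22 in its brightest one. Its remaining probe set, nearly as bright as the brightest, had -0.06.

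Kit, the receptor of stem cell factor, was dim in all samples, at 2.99 to 3.37 in knockout and 3.40 to 3.90 in wild-type livers, a difference of -0.49 (adjusted p = 0.439). Col13a1, a membrane collagen, had -0.52 and Abhd14a, a hydrolase-fold protein, -0.35, both with an adjusted p of 0.642. The Col13a1 difference was -0.77 on the high-fat and -0.26 on the low-fat diet. The other Abhd14a probe set, somewhat dimmer, had -0.07. Nat8l, the enzyme that makes N-acetylaspartate, had -0.29 and Mllt11 -0.22, both below a signal of 3.31 in every sample. The brightest Nat8l probe set had a difference of 0.07 at signals of 3.62 to 3.90, and the brightest Mllt11 probe set had -0.07 at signals of 3.09 to 3.70, so that for these genes the difference rests on a dimmer probe set. At such signals a difference is compressed and is near the level of probe sets without transcript.

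The 12 genes with the smallest p among those higher in knockout livers were Orai1, Tubb2a, Tuba1c, Ifi27l2a, Olah, Icam1, Krt35, Slc35g3, Dnajc12, Ugdh, Rtn4rl1 and Ifi27, and none passed. Orai1, the pore of the calcium channel that refills calcium stores, had 6.88, 6.82 and 6.82 in knockout livers on the high-fat diet, against 6.57, 6.47 and 6.46 in wild-type livers. Low-fat knockout livers had 7.47, 7.29 and 7.22, against 6.83, 6.89 and 6.86 in low-fat wild-type livers. Knockout livers were higher within each diet, with overlap only across diets, and the difference was 0.41 (SE 0.0714, limma adjusted p = 0.230). Its dimmer probe set had 0.12.

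A pair of tubulin genes was among the 12. Tubb2a, a beta-tubulin, had 6.49, 6.44 and 6.11 in knockout livers on the high-fat diet, against 5.18, 5.55 and 6.10 in wild-type livers. The low-fat values were 7.25, 7.46 and 7.97 in knockout livers, against 6.80, 6.68 and 6.83 in wild-type livers. All knockout livers were above the wild-type livers of the same diet, and the difference was 0.76 (SE 0.147, limma adjusted p = 0.439), the largest among the 12. The other Tubb2a probe set was dim and had a difference of 0.18 (adjusted p = 0.807), with overlap of the genotypes. Tuba1c, an alpha-tubulin, had 6.41 to 6.89 in knockout and 5.85 to 6.36 in wild-type livers, with no overlap, and differences of 0.43 (adjusted p = 0.439) and 0.34 in its 2 probe sets. Tubulin genes are similar in sequence, and these probe sets can match more than 1 of them, so the gene that gave the signal is uncertain.

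Of the remaining genes, Ugdh, which makes UDP-glucuronate for conjugation in the liver, had 10.01 to 10.37 in knockout livers, median 10.17, and 9.61 to 10.05 in wild-type livers, median 9.94, a difference of 0.30 (adjusted p = 0.776). Dnajc12, a co-chaperone of aromatic amino acid hydroxylases, had 0.41 and Icam1, the adhesion molecule that leukocytes bind, 0.47, both with an adjusted p of 0.642. Ifi27l2a, an interferon-induced gene, had 0.50 (adjusted p = 0.642), at 0.52 on the high-fat and 0.48 on the low-fat diet. Ifi27, a mitochondrial protein induced by type I interferon, had 9.76, 9.65 and 9.61 in knockout livers on the high-fat diet, against 8.85, 9.10 and 8.74 in wild-type livers. Under low-fat feeding, 9.30, 8.55 and 9.24 were measured in knockout livers, against 8.96, 8.61 and 8.55 in wild-type livers. The genotypes were apart on the high-fat diet, and 1 knockout liver on the low-fat diet, replicate 2 with few macrophage markers, lay just below all wild-type livers. The Ifi27 difference was 0.55 (SE 0.131, limma adjusted p = 0.792), and without that 1 liver it was 0.68 and passed (adjusted p = 0.0272). That liver had the lowest knockout value, so leaving it out raises the difference. Leaving out single samples put the adjusted p between 0.0272 and 0.936, and only this 1 fit passed. The other Ifi27 probe set had 0.46 (adjusted p = 0.792). Rtn4rl1 had 0.40, Olah 0.43, Krt35 0.24 and Slc35g3 0.31, and the last 3 of these were dim. The other Olah probe set, of about the same signal, had -0.001.

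**Figure D4:**
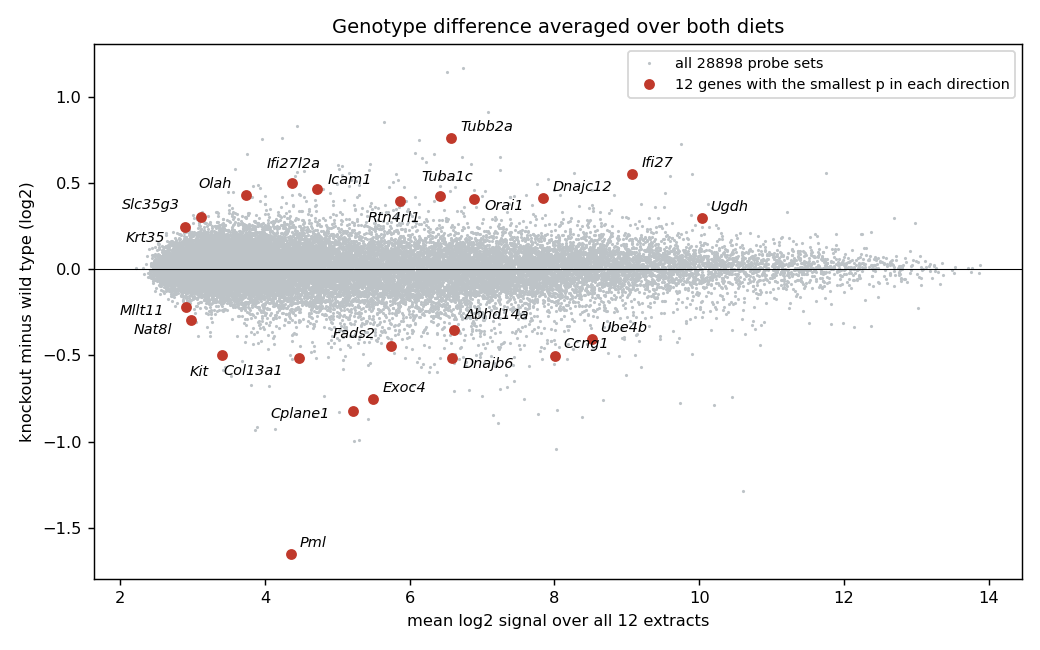
Difference between knockout and wild-type livers averaged over both diets (vertical axis, log2) against the mean log2 signal over all 12 extracts (horizontal axis) for 28898 probe sets (grey), with the 12 genes of smallest p in each direction in red. Pml stands alone at -1.66, and the other red points lie between -0.82 and 0.76, where unmarked grey points reach similar sizes with a larger spread between livers.

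Groups that did not overlap at all were rare. All 6 knockout samples lay below all 6 wild-type samples for 25 probe sets (0.0865% of all) of 23 genes, and above them for 44 probe sets (0.152%) of 44 genes. Of the 25, 19 had a mean signal above 3.82, the level under which the dimmest 40% of probe sets lie, and of the 44, 23 did. Besides both probe sets of Pml and a pair of Exoc4, the 25 held Map2k3, a kinase of the p38 pathway, at -0.19, Kdm1a, a histone demethylase, at -0.23, and Xpc, a DNA damage sensor that is also a p53 target, at -0.17, with unadjusted p-values of 0.00666, 0.00707 and 0.0216. The 44 held Itpa, which clears deaminated nucleotides, at 0.22 and Col6a2, a collagen chain, at 0.26. These 5 were chosen from the non-overlapping genes after their values were seen.

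Genes induced by interferon-gamma had higher values in knockout livers, and these came from the high-fat diet. Of 13 measured GTPases and regulators 12 had a difference above 0, where 56.2% of all genes did. An unadjusted p under 0.05 was found for 4, all higher, where 3.65% of all genes were higher at that level, and none passed. Their median was 0.24 over both diets, 0.51 on the high-fat and 0.004 on the low-fat diet, against 0.015, 0.008 and 0.020 for all genes. Their mean on the high-fat diet was 6.88, 6.86 and 6.50 in knockout livers, against 6.13, 6.06 and 6.15 in wild-type livers. Fed the low-fat diet, knockout livers had 6.01, 5.91 and 6.35, against 6.22, 6.11 and 6.15 in wild-type livers. The knockout livers were all higher on the high-fat diet, and on the low-fat diet the genotypes overlapped. Neutrophil markers had means of 4.84, 4.72 and 4.70 in knockout and 4.37 to 4.44 in wild-type livers on the high-fat diet. On the low-fat diet the means were 4.27 to 4.34 in knockout and 4.17 to 4.28 in wild-type livers. These means include Lcn2, with a difference of 1.78 on the high-fat and -0.27 on the low-fat diet. The median difference of the neutrophil list was 0.16 on the high-fat and 0.09 on the low-fat diet. All 9 measured neutrophil markers had a difference above 0, with a median of 0.19, but S100a8, which defines these cells, was dim in all samples at 2.80 to 3.45 in knockout and 2.69 to 3.10 in wild-type livers. The part of infiltrating cells in the interferon values was not tested.

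Tgtp1, an immunity-related GTPase that attacks vacuoles of parasites, had 7.36, 6.63 and 6.12 in knockout livers on the high-fat diet, against 5.17, 4.93 and 5.07 in wild-type livers. With low-fat feeding it had 5.13, 5.14 and 6.09 in knockout livers, against 5.57, 4.93 and 5.66 in wild-type livers. The difference was 0.86 (SE 0.288, limma adjusted p = 0.792), made up of 1.64 on the high-fat and 0.07 on the low-fat diet, with an unadjusted p of 0.00235 for the difference between diets. Gbp2, a guanylate-binding protein, had 5.38, 5.03 and 4.41 in knockout livers on the high-fat diet, against 4.24, 4.11 and 4.06 in wild-type livers. Low-fat knockout livers had 4.40, 4.18 and 4.42, against 4.201, 4.003 and 4.16 in low-fat wild-type livers. Gbp2 was thus higher than in every wild-type liver in 5 of 6 knockout livers, with a difference of 0.51 (adjusted p = 0.792), at 0.80 on the high-fat and 0.21 on the low-fat diet. Of the 13 genes, 9 had an unadjusted p under 0.05 for the difference between diets, where 5.51% of all genes did, and all of these had the larger value on the high-fat diet.

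Promoters of Gbp2 and Tgtp1 are shown because they lead this list, as 250 bases before to 50 after the start (RefSeq, GRCm38.p6), 5′ to 3′ on the strand of the gene. Capitals mark GAAA repeated after any 2 bases, the core of the element through which interferons act on genes, searched on both strands. Gbp2 is chr3:142620413-142620712 on the plus strand, with its match on the opposite strand 59 bases before the start. Tgtp1 is chr11:48992197-48992496 on the minus strand, with its match 77 bases before the start.
Gbp2: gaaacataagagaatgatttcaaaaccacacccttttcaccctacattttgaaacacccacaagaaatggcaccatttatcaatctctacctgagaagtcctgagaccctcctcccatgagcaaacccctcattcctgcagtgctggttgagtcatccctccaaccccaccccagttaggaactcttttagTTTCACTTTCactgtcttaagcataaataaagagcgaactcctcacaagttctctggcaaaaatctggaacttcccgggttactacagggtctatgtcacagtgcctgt
Tgtp1: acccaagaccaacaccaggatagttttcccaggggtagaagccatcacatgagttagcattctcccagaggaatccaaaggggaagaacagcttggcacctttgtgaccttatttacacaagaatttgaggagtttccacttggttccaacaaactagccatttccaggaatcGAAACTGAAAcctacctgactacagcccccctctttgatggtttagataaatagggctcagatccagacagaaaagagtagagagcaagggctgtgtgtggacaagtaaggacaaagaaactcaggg
The motif was found in 8 of the 11 measured members of the interferon-gamma list with a window and in 7 of the 14 of the list of interferon-stimulated genes, where 3.99% of all genes with a window held it. For comparison, TGACCT, the single repeat of the element that PPAR binds, was found in 10 of 26 PPAR-alpha targets and in 18.1% of all genes, and TGACCT repeated after any 1 base in 0 of the 26 and in 13 genes in all. These matches describe the letters of the windows and are not measured binding. The lists were made of target genes, so their shares of matches tell nothing about the knockout.

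The list of interferon-stimulated genes, which respond mainly to type I interferon, had 17 of 22 members above 0 and a median of 0.11, at 0.21 on the high-fat and -0.04 on the low-fat diet. An unadjusted p under 0.05 was found for 5 higher members and 1 lower member, where 3.65% of all genes were higher and 2.68% lower at that level. Ifit1, which binds viral RNA, had 6.17, 5.995 and 6.07 in knockout livers on the high-fat diet, against 4.17, 4.70 and 5.61 in wild-type livers. The low-fat values were 4.75, 4.13 and 5.07 in knockout livers, against 4.17, 4.81 and 5.13 in wild-type livers. The genotypes were apart on the high-fat diet and overlapped on the low-fat diet, and the difference was 0.60 (limma adjusted p = 0.794). Usp18, a protease that removes ISG15 and dampens interferon signalling, had 0.52 and Irf7, the factor that amplifies interferon production, 0.34, both with an adjusted p of 0.794. Mx2, an antiviral GTPase, had -0.21. Ifit3, a partner of Ifit1, had 0.94 on the high-fat and -0.48 on the low-fat diet, or 0.23 over both, and its difference between diets had an unadjusted p of 2.7e-05 (limma adjusted p = 0.772).

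The list of cytokines and chemokines had 16 of 20 members above 0, a median of 0.09 and no member that passed. Cxcl9, which draws T cells into tissue, had 9.19, 7.98 and 6.85 in knockout livers on the high-fat diet, against 6.004, 5.34 and 5.60 in wild-type livers. Under low-fat feeding, 6.45, 5.31 and 6.77 were measured in knockout livers, against 6.60, 5.95 and 6.17 in wild-type livers. The knockout livers on the high-fat diet were above all others, and the difference was 1.15 over both diets (95% interval 0.21 to 2.09, adjusted p = 0.794), 2.36 on the high-fat and -0.06 on the low-fat diet. Cxcl10, a chemokine of the same receptor, had 0.67 (adjusted p = 0.792), at 1.23 and 0.11. Ccl9, a chemokine of myeloid cells, had -0.35 (adjusted p = 0.792).

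Acute phase proteins, which the liver secretes in inflammation, had 18 of 21 members above 0 and a median of 0.08. Saa3, a serum amyloid A, had 9.25, 8.06 and 7.50 in knockout livers on the high-fat diet, against 6.99, 6.72 and 6.62 in wild-type livers. Fed the low-fat diet, knockout livers had 7.40, 6.20 and 6.87, against 6.64, 6.24 and 6.57 in wild-type livers. The difference was 0.92 (SE 0.283, adjusted p = 0.792), at 1.49 on the high-fat and 0.34 on the low-fat diet. Hamp, the gene of the iron hormone hepcidin, had 12.88 to 13.27 in knockout livers, median 13.12, and 12.46 to 13.18 in wild-type livers, median 12.85, a difference of 0.27 (adjusted p = 0.792) that was as large on either diet. Lcn2, which binds bacterial iron carriers and also counts as a neutrophil marker, had 8.74, 8.16 and 6.94 in knockout livers on the high-fat diet, against 6.22, 6.10 and 6.18 in wild-type livers, and its difference over both diets was 0.75 (95% interval -0.05 to 1.55). Genes of antigen presentation by MHC class II had 8 of 10 members above 0 and a median of 0.11, or 0.51 without the pair of samples with few macrophage markers, and those of MHC class I 6 of 10 with a median of 0.04.

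**Figure D5:**
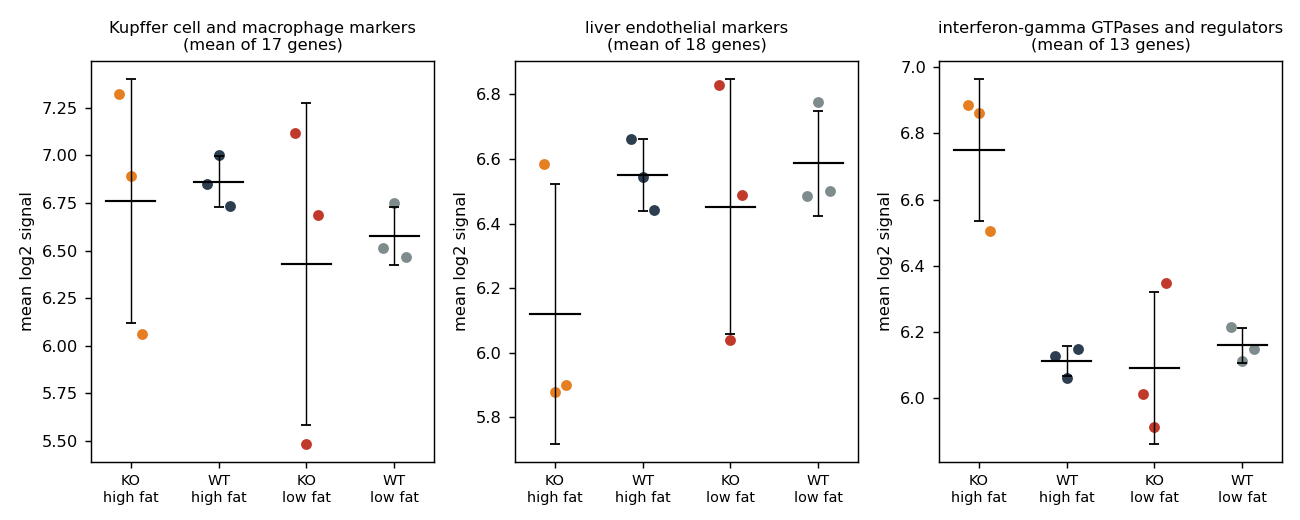
Mean log2 signal (vertical axis) of the Kupffer cell and macrophage markers, the liver endothelial markers and the interferon-gamma list (1 panel each) in every extract, by genotype and diet. Points are liver extracts, horizontal bars group means and error bars SD over 3 extracts; 1 knockout liver on each diet is low in macrophage markers (6.06 on the high-fat and 5.48 on the low-fat diet), and the 3 knockout livers on the high-fat diet stand highest in the interferon-gamma panel (6.50 to 6.88).

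Endothelial markers had the lowest median difference of the 45 lists examined over all 12 samples, and interferon-gamma genes the highest. Of 18 measured genes 17 had a difference below 0, where 43.8% of all genes did, and 5 of them had an unadjusted p under 0.05, where 2.68% of all genes were lower at that level. The median was -0.33, at -0.49 on the high-fat and -0.13 on the low-fat diet. None passed. Without the pair of samples with few macrophage markers the endothelial median was -0.16, next to -0.15 for PPAR-alpha targets. The MHC class II list (0.51) and the macrophage markers (0.34) then lay above the interferon-gamma list (0.32). The pair was chosen for its low macrophage markers, so the rise of the macrophage median follows from the choice. The same pair had the lowest means of the MHC class II list, 4.69 and 5.12. Tie1, a receptor of vessel-lining cells, had 4.26 to 4.69 in knockout livers, median 4.39, and 4.48 to 4.89 in wild-type livers, median 4.80, a difference of -0.33 (adjusted p = 0.792). Bmp2, a growth factor that sinusoidal cells send to hepatocytes to raise Hamp, had -0.39 (adjusted p = 0.792), and Gpr182, a receptor of sinusoidal cells, had -0.54 (adjusted p = 0.794). Stab2, the hyaluronan receptor that marks sinusoidal endothelium, had -0.20 (95% interval -0.41 to 0.02). Apart from the 3 knockout samples with low means that were named above, knockout livers had list means of 6.49 to 6.83, against 6.44 to 6.78 in wild-type livers.

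Kupffer cell and macrophage markers had 10 of 17 members below 0 and a median of -0.10, which was 0.34 without the pair of samples that hold the lowest values. Clec4f, a lectin of Kupffer cells, had 5.76 to 8.14 in knockout and 6.60 to 7.88 in wild-type livers, with a difference of -0.10 (95% interval -0.86 to 0.65), and Cd5l, a protein that macrophages secrete, had 0.03. The spread was wider in knockout livers, and no direction is shown. Hepatocyte markers had 4 of 12 below 0 with a median of 0.009, with Cebpa, a factor of hepatocyte identity, at 0.21. Medians were 0.002 for 8 periportal and 0.04 for 9 pericentral markers. Of 13 stellate cell and fibroblast markers 9 were below 0 and 4 above, with a median of -0.04. Col1a1 and Col3a1, chains of fibrillar collagen, were among the 4, at 0.25 and 0.34. Other medians were -0.008 for 6 cholangiocyte markers, 0.05 for 9 T and NK cell markers and -0.02 for 6 B and plasma cell markers. They were 0.02 for 4 erythroid markers, 0.13 for 6 adipocyte markers and 0.05 for 10 markers of exocrine pancreas. None of these genes passed.

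Of 19 genes of the circadian clock 15 were below 0, with a median of -0.09. Among them Cry1, a repressor of the clock, had -0.26 and Nfil3, a repressor of its output, -0.38, both with an adjusted p of 0.794. Genes of drug metabolism under the receptors CAR and PXR had 10 of 20 below 0 and a median of -0.002, and its members had differences of opposite sign. Cyp2b10, a marker of CAR activity, had 3.09 to 3.96 in knockout livers, median 3.26, and 2.95 to 4.99 in wild-type livers, median 4.53, a difference of -0.92 (adjusted p = 0.792). Cyp3a11, one of several similar Cyp3a genes, had 0.56, and Nr1i2, the gene of PXR, -0.35, both with an adjusted p of 0.792. Foxo3, a transcription factor held back by insulin, had 7.88 to 8.48 in knockout livers, median 8.10, and 8.13 to 8.85 in wild-type livers, median 8.60, a difference of -0.42 (adjusted p = 0.792), in a list of insulin and FOXO signalling with 13 of 21 below 0 and a median of -0.03.

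For the remaining lists the medians were -0.05 for the unfolded protein response (22 genes, with the chaperone Creld2 at -0.55), 0.08 for the cell cycle (24), 0.04 for NRF2 antioxidant genes (21), 0.03 for heat shock genes (10) and -0.03 for autophagy (19). They were 0.04 for TGF-beta signalling (21), -0.02 for immediate early genes (20), 0.03 for ribosomal proteins (18), -0.05 for male-biased liver genes (14) and -0.03 for female-biased liver genes (17). None of their members passed.

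The neighbourhood of Pml on its chromosome was examined gene by gene. Of the 50 genes on each side of Pml, in the order of the RefSeq annotation of GRCm38.p6, 83 were measured. They had 41 values below and 42 above 0 and a median of 0.0004, and 3 lower genes and 1 higher gene had an unadjusted p under 0.05, shares of 3.61% and 1.205%, where 2.68% of all genes were lower and 3.65% higher at that level. Besides Etfa these were Rec114, a protein of meiotic recombination, at -0.85, Spesp1, a sperm protein, at -0.24 and Neil1, a DNA glycosylase, at -0.18. None of the neighbours reached an unadjusted p of 0.001. Rec114 had 5.95, 5.0004 and 3.07 in knockout livers on the high-fat diet, against 4.80, 4.72 and 4.83 in wild-type livers, and 4.13, 3.69 and 3.60 on the low-fat diet, against 5.55, 5.78 and 4.87 in wild-type livers. The genotypes were apart on the low-fat diet and overlapped on the high-fat diet.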

How the data were processed

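Liver RNA of 12 extracts was prepared with Trizol and labelled with biotin by the authors, per the labels. They deposited log2 signals for 45141 probe sets, which the submitters' processing notes credit to RMA with no version. By its usual steps RMA compresses differences of dim probe sets. No scaling was added. Probe sets with 1 gene (28898) were used, and 104 controls, 551 with several genes and 15588 with none were left out. Gene symbols were looked up in the RefSeq table of GRCm38.p6 by gene ID, which held 28689 of the IDs, and 0 symbols changed.

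The model was genotype plus diet on the 12 arrays, which leaves 9 residual degrees of freedom (limma 3.58.1 in R 4.3.3, trended variance), with Benjamini-Hochberg adjustment over all 28898 probe sets. Differences on each diet and between diets came from a fit of the 4 group means. The probe set with the highest mean stood for its gene where genes were counted or listed. The fit was tested on simulated data with known differences and independent noise for each probe set. Of 67 probe sets changed 1.5-fold, 89.6% were recovered, and 10 of the 201 calls at all fold sizes were false. Changes shared between genes, such as low markers of a cell type in 1 liver, were not simulated, so the test does not cover them. The 45 gene lists (828 members measured, 136 not matched) were described without a test. The members, lists and named genes were chosen with earlier results of these data known. Named genes are Pml, Ccng1, Ppara, the 12 of smallest p in each direction and the 2 to 4 members of each list with the smallest p or the largest difference, and any other gene named, such as Fasn, Mdm2 or Lpin1, was chosen after its values were seen. The labels number extracts 1 to 3 in each group but do not say that numbers pair samples, so no pairing was used in the reported fit. Correlations of deviations ran from -0.11 to 0.32 for same-numbered pairs, with a median of 0.054 and 7 of 18 over 0.1. For different-numbered pairs they ran from -0.38 to 0.14, with a median of -0.015 and 5 of 36 over 0.1. A structure shared by replicate number is thus not excluded, and the replicate block is given as an alternative. Alternatives were other scaling, filters, probe set choices, variance models, a replicate block, array weights, a threshold of 0.10 and leaving out arrays.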

Additional observations from a re-analysis of the deposited data

Results flagged for a closer look

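In 9 of 212 sets of 6 arrays, 1 liver lay far from the other 5 of its genotype by Dixon's criterion, which chance meets in about 1 in 20 sets. Among knockout livers these were Klb, the co-receptor of FGF21, at 8.70 in low-fat replicate 3 (next 8.27), S100a8 at 2.80 in the same liver (next 3.24) and Xlr4b, a lymphocyte-regulated gene, at 5.58 in low-fat replicate 2 (next 3.82). Among wild-type livers they were Klb at 7.26 in high-fat replicate 3 (next 7.96), Eda2r, a p53 target, at 2.86 in high-fat replicate 2 (next 3.44), and in low-fat replicate 2 Cyp2b10 at 2.95 (next 4.42) and Gpr182 at 6.89 (next 6.42). In low-fat replicate 3 they were Pdk4 at 4.60 (next 3.76) and Trim41 at 8.13 (next 7.88). No genotype difference differed between the diets at an adjusted p of 0.05.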

How the results depend on the processing

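Pml kept its direction and passed under every alternative run. The count of probe sets that passed was 1 in the reported fit, and it was 1 with median centring, with all probe sets but controls, with group means, with no variance trend, and without the pair of arrays with the lowest macrophage markers. It was 2, with Ccng1 added, after quantile normalization (Ccng1 -0.50, adjusted p = 0.0446), without the dimmest 40% of probe sets (-0.50, adjusted p = 0.0333), with the brightest probe set per gene (-0.50, adjusted p = 0.0271), with both of these (-0.50, adjusted p = 0.0190), with robust variance (-0.50, adjusted p = 0.0283), with array weights (-0.51, adjusted p = 0.0382) and at an adjusted p of 0.10 (-0.50). The filters leave fewer probe sets to adjust over, and why Ccng1 passed under these alternatives was not tested. Leaving out single arrays gave 1 to 2 calls, with the Pml difference from -1.73 to -1.55, Ccng1 from -0.54 to -0.47 (it passed when knockout low-fat replicate 3 was left out, with adjusted p = 0.0377) and Ppara from -0.33 to -0.22. The added call without knockout low-fat replicate 2 was Ifi27 (0.68). With the replicate number as a block the count was 1 and no call changed. Of the 25 genes followed through the alternatives (Ppara and the 12 of smallest p in each direction), 0 changed sign while their probe set was in the fit, but the brightest probe sets of Cplane1 and Nat8l have differences of 0.02 and 0.07. Of the 45 list medians, 10 changed sign without the pair of arrays, and 3 did so without dim probe sets. Among the 10 were heat shock genes (0.03 and -0.05) and the TRIM family (-0.02 and 0.03). The macrophage markers were among them too (-0.10, against 0.34 without the pair). The pair was chosen by these markers, so that change follows from the choice. The median of the female-biased list was -0.17 without dim probe sets, and that of the neutrophil list 0.13 without the pair of arrays. Dim probe sets give compressed values, which limits what can be read from them.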

Other observations

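Several of the largest differences had a wide spread between livers and no small p, and these genes were chosen after their values were seen. Mt1, the metal-binding metallothionein that zinc and glucocorticoids induce, had 11.18, 10.30 and 11.92 in knockout livers on the high-fat diet, against 11.84, 12.37 and 11.67 in wild-type livers. With low-fat feeding it had 9.44, 7.85 and 9.13 in knockout livers, against 10.78, 9.14 and 11.73 in wild-type livers. The difference was -1.29 (SE 0.395, limma adjusted p = 0.792), the second largest in size after Pml among brightest probe sets, and the genotypes overlapped over both diets.

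Other genes were picked from the largest differences in the same way, and none of them passed. Fkbp5, a co-chaperone of the glucocorticoid receptor, had 6.88 to 9.52 in knockout and 7.15 to 9.61 in wild-type livers, a difference of -0.86 (adjusted p = 0.794), and Zbtb16, a transcription factor, had -1.04 (adjusted p = 0.794). Setdb2, a histone methyltransferase family member, had 6.45 to 7.21 in knockout and 6.66 to 8.17 in wild-type livers, a difference of -0.89 (adjusted p = 0.792). In wild-type low-fat replicate 2, Mt1, Fkbp5, Zbtb16 and Setdb2 were all at the lowest value of the 6 wild-type livers, at 9.14, 7.15, 7.21 and 6.66, which lie inside the knockout range. BC023105, which lies in no list here, had the largest difference above 0, 1.17 (adjusted p = 0.794), at 1.92 on the high-fat and 0.41 on the low-fat diet.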
